A study of Mus musculus with 25 samples.

Results

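The T-box genes examined were 10 members of a family of transcription factors that share a DNA-binding domain, the T-box: Tbx1, Tbx2, Tbx3, Tbx4, Tbx5, Tbx15, Tbx18, Tbx20, Tbr1 and Eomes. They were chosen by name, with earlier results of these data known. Their rows are those of the 12 H3K27me3 peak lists that the authors had assigned to these symbols. Of the 10 genes, 8 had at least 1 such row, among 6092 genes with a peak in any list. H3K27me3 is the trimethylated form of lysine 27 of histone H3, a mark of silenced chromatin, and was measured by chromatin immunoprecipitation sequencing (ChIP-seq) in mouse myofibers regenerating in the tibialis anterior at 14 days post injury (dpi). The 4 genotypes had 3 lists each, 1 list per library. All mice, wild-type included, carried a mito-Dendra2 reporter and, as its driver, Pax7-Cre(ERT2), which recombines in muscle stem cells. All received tamoxifen (75 mg/kg daily for 5 days) and, 2 days after the last dose, an injury with 50 uL of 1.2% BaCl2. In mfn2-/- mice the floxed gene of the mitochondrial fusion protein mitofusin 2 was removed, and in vhl-/- mice that of Vhl, the protein through which HIF1α is degraded. HIF1dPA mice expressed a proline-to-alanine form of HIF1α that Vhl does not recognise. The labels give the mice as adult, with no age, and do not say whether the replicates of a genotype came from separate mice. The paper describes the replicates of each ChIP-seq data set as biological. The p-values measure the spread between these libraries. Recombination was limited to cells that had expressed the driver, and dissected myofibers can hold nuclei of other cells.

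T-box factors act as patterning genes of the embryo, and several are needed to build the heart and the limbs. H3K27me3 is written by Polycomb repressive complex 2, which typically covers such developmental regulators in broad domains in cells that do not use them. Within the family, Tbx20, Tbx5, Tbx2, Tbx3 and Tbx18 act in the heart, Tbx4 in the hindlimb, Tbx1 in the pharyngeal apparatus and its muscles, Tbr1 in neurons of the cerebral cortex and Eomes in early mesoderm and in lymphocytes. Tbx15 is known in muscle for its part in fast glycolytic fibers.

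The stretch just before a start site is shown for 5 of the genes. Peaks met the window around the site in 3 of them and not in the other 2, of which Tbx1 had no peak. RefSeq windows (build GRCm38.p6, the assembly behind mm10) reach from 250 bases before to 50 after a start site, were at hand for 6 of the 10 genes, and the 250 bases upstream are printed 5′ to 3′ on the gene's strand, with CG dinucleotides in capitals. Peaks touched the window of Tbr1 in 5 of the 12 lists, that of Eomes in 5 and that of Tbx20 in 4. The window of Tbx18 was touched in 0 lists although the gene had peaks in 11, and that of Tbx4, not printed, in 0 with peaks in 10. Tbx1 had no peak at all, so its window could not be met. Where a gene had several start sites, the outermost in the table was taken. The sites taken for Tbr1 (chr2:61804453) and Tbx4 (chr11:85896765) lie inside the RefSeq gene spans, which begin at chr2:61802863 and chr11:85886367. The Tbr1 stretch printed is thus within the gene's span.
Tbr1, chr2:61804203-61804452, plus strand: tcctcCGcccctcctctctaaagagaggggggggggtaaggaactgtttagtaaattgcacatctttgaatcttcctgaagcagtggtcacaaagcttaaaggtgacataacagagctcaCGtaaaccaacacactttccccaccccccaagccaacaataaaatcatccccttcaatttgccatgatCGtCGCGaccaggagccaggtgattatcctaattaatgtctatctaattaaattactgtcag
Tbx20, chr9:24774304-24774553, minus strand: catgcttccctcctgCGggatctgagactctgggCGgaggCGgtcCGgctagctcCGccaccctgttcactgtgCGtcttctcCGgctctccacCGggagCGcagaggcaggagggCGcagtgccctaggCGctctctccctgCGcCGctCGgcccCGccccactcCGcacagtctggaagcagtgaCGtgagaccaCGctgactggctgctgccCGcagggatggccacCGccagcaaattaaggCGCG
Eomes, chr9:118477939-118478188, plus strand: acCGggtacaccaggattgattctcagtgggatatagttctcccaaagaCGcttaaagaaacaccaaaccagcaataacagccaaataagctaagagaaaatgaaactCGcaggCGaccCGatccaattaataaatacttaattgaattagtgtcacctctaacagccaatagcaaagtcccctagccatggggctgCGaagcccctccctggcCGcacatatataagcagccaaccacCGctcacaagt
Tbx18, chr9:87731261-87731510, minus strand: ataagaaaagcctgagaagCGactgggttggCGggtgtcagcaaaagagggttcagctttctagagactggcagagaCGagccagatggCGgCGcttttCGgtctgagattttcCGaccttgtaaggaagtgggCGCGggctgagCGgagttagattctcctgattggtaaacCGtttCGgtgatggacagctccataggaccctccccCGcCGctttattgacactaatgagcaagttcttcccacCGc
Tbx1, chr16:18590672-18590921, minus strand: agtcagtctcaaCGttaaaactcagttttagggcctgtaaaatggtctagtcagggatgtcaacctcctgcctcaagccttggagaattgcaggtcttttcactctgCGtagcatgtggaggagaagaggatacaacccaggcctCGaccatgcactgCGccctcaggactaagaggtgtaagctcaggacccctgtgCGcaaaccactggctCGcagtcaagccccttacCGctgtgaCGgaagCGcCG
The Tbx20 stretch held 22 CG dinucleotides, that of Tbx18 15, that of Tbx1 10, that of Eomes 8 and that of Tbr1 5. Over the 300-base windows, GC content was 68.3% for Tbx20, 59.0% for Tbx4, 58.3% for Tbx1, 51.7% for Tbx18, 47.3% for Eomes and 46.0% for Tbr1, beside a median of 52.7% over 32851 RefSeq windows. The genes whose windows met peaks thus had both the highest and the lowest GC content of the 6. The core of the T-box binding sequence, AGGTGTGA, or its reverse complement TCACACCT, occurred in 1.28% of all windows and in 0 of the 6.

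Of 34244 H3K27me3 peaks in the 12 lists, 298 were assigned to the T-box genes. The lists of wild-type, mfn2-/- and vhl-/- myofibers held 3358 to 4035 peaks each and those of HIF1dPA 482 to 501, and every comparison with HIF1dPA below is made across that difference in list length. The number of reads behind a list is not known, so whether the short lists reflect depth was not tested. The median width of all peaks was 784.5 to 825 bp in vhl-/- lists, above the 739 to 778.5 bp of wild-type lists. Every comparison of covered length with vhl-/- below is made across that difference, whose part in it was not tested. A peak's score is -10 times the base-10 logarithm of its p-value and grows with depth, so scores are compared between lists as a percentile, the share of a list's peaks that score the same or lower, and raw scores are given only to describe peaks or as a cut. In bulk chromatin, a mark on fewer nuclei and a weaker mark on each nucleus cannot be told apart. None of 8 genes that define skeletal myofibers (Acta1, Ckm, Ttn, Des, Tnnt3, Mylpf, Myh4 and Actn3) had an H3K27me3 peak in any list. Markers of other cells had few: 3 of 3 immune genes in 1 list each, 1 of 3 endothelial genes in 1 list, Pdgfra of 3 fibro-adipogenic genes in 9 lists, and Rbfox3 in 9 and Snap25 in 2 lists of 3 neural genes. What these genes' absence or presence says of the cells in the sample was not tested.

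Most of the T-box genes examined were marked in every list outside HIF1dPA. Tbx4, Tbx5, Tbx18, Tbx20, Tbr1 and Eomes had a peak in each of these 9 lists, as did 367 genes, 6.02% of those with any peak. The T-box genes were chosen with earlier results known, so that share is given for scale only. Tbx2, a repressor in the atrioventricular canal of the heart and in limb buds, had a peak in 6 lists, and Tbx3, its closest relative, in 3. No peak was listed for Tbx1 or Tbx15. The number of T-box genes with a peak was 7, 6 and 7 in the wild-type lists, 7, 7 and 8 in mfn2-/-, 8, 6 and 7 in vhl-/-, and 2, 4 and 2 in HIF1dPA. These genes had 36, 28 and 26 peaks in the wild-type lists, 32, 24 and 27 in mfn2-/-, 40, 38 and 37 in vhl-/- and 3, 5 and 2 in HIF1dPA, which is between 0.399% and 1.03% of each list. The counts of wild-type, mfn2-/- and vhl-/- genes overlapped, and the HIF1dPA lists lay below all of them.

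T-box peaks were long and scored high for their lists. In wild-type lists their median width was 945 ± 26.5 bp, beside 758 ± 19.9 bp for all peaks (mean of list medians ± SD, n = 3 lists). The corresponding widths were 981 ± 198 and 684 ± 36.0 bp in mfn2-/-, and the means were 965 against 798 bp in vhl-/- and 693 against 617 bp in HIF1dPA. Their median score percentile was 70.9 ± 2.07 in wild-type and 78.8 ± 4.64 in mfn2-/- (67.8 in vhl-/- and 60.3 in HIF1dPA), where the median of all peaks lies at 50.0 to 50.1. Widths and percentiles were taken over all chromosomes, on which these lists differ. As given below, 202 genes were in all mfn2-/- and no wild-type list, most of them off the autosomes. The highest-ranked T-box peak of the data belonged to Tbx18 and stood at rank 21 of 3358 in mfn2-/- replicate 2, with a score of 288.9, and the highest-scoring one to Tbx20, at rank 29 of 3884 in vhl-/- replicate 1, with a score of 359.3. The authors classed 123 of the 298 peaks as promoter, a class that reaches 3 kb from a start site, and 97 as distal intergenic. As means of list shares, promoter peaks were 39.1% of T-box peaks and 49.4% of all peaks in wild-type. The shares were 48.5% and 41.4% in mfn2-/-, 36.5% and 51.6% in vhl-/-, and 68.9% and 38.9% in HIF1dPA, with 2 to 5 T-box peaks per list. The distal intergenic share of all peaks is not given here.

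To ask whether the length of the mark over each gene differed between genotypes, the base pairs covered by a gene's peaks were compared over the 12 lists by an exact permutation test across the 4 genotypes, for 2394 genes with a peak in at least 3 lists, with Benjamini-Hochberg adjustment over all of them. Covered length differed for 1 of the 8 T-box genes after adjustment, Tbr1, beside 44 of all genes (1.84%). Before adjustment, 5 of the 8 (Tbr1, Eomes, Tbx20, Tbx18 and Tbx5) had a p under 0.05, beside 794 genes (33.2%). HIF1dPA, with its short lists, had the lowest mean covered length for 7 of the 8 T-box genes and for 1362 of the 2394 (56.9%). Where lists of genotypes are said below not to overlap, the share of all genes that separate so is not given. Such separations describe a gene and are not read as particular to the T-box genes.

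**Figure D1:**
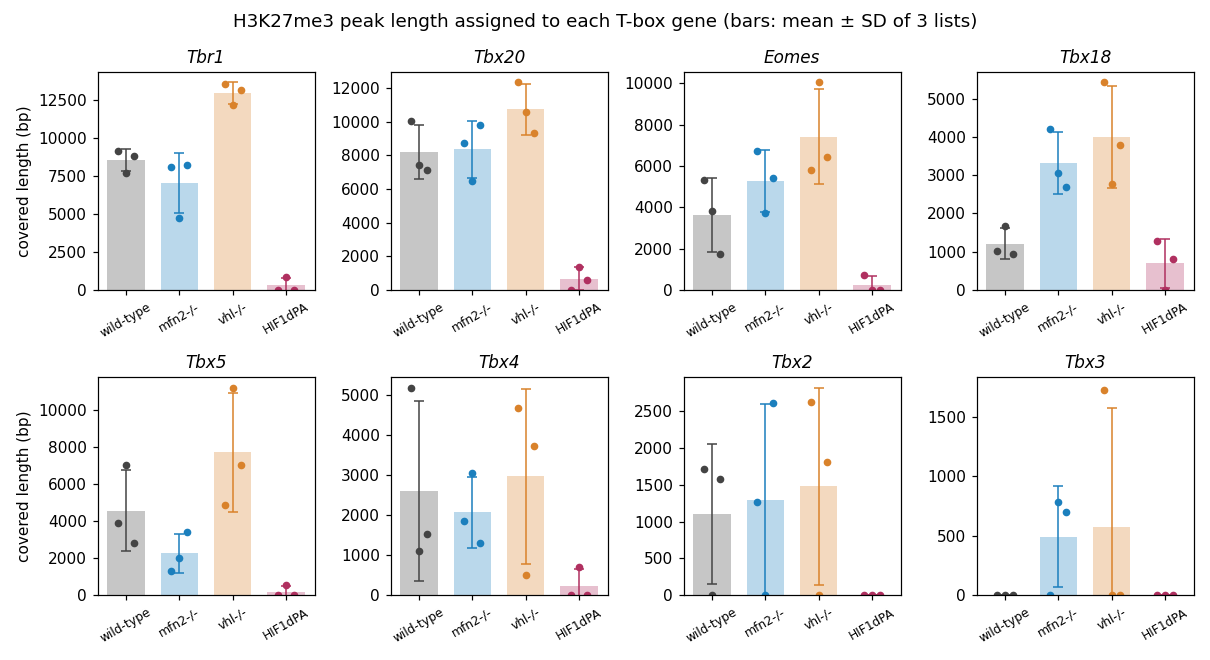
Base pairs covered by H3K27me3 peaks (vertical axis, bp, linear from 0, a different scale in each panel) for the 8 T-box genes with a peak, by genotype. Points are the 3 lists in order of replicate number, bars the mean and whiskers the SD (n = 3), and the parts of whiskers below 0 are not drawn. The vhl-/- lists of Tbr1 sit between 12162 and 13520 bp, above the wild-type lists at 7701 to 9107 bp, and the wild-type lists of Tbx18 lie below all mfn2-/- and vhl-/- lists.

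Tbr1, the neuronal gene of the set, was covered over a mean of 8533 ± 738 bp in wild-type, beside 8179 ± 1616 bp for Tbx20, and differed between genotypes. Its peaks covered 9107, 7701 and 8792 bp in the wild-type lists, 8082, 4739 and 8227 bp in mfn2-/-, 13520, 12162 and 13127 bp in vhl-/- and 0, 862 and 0 bp in HIF1dPA. All vhl-/- lists lay above all others, wild-type and mfn2-/- overlapped, and HIF1dPA lay below the rest. The exact permutation test across the genotypes gave p = 0.000195 and an adjusted p of 0.0415. The vhl-/- mean exceeded wild-type by 4403 ± 587 bp, and the HIF1dPA difference was -8246 ± 514 bp (SE, 3 lists each), each with an exact two-sided p of 0.1, the smallest that 3 against 3 allows. The mfn2-/- difference was -1517 ± 1216 bp (exact p = 0.3). Without mfn2-/- replicate 1, or without any 1 of the 3 HIF1dPA lists, 0 genes passed at adjusted p under 0.05 by the exact permutation test (554 to 633 genes unadjusted), and the adjusted p of Tbr1 was 0.0545 to 0.0765 with its own p at 0.000195. Over these and the other settings tried with all 4 genotypes it was 0.0323 to 0.179. The score of Tbr1 did not separate these genotypes, its best percentile being 95.6 ± 2.27 in wild-type, 95.1 ± 4.95 in mfn2-/- and 96.1 ± 1.89 in vhl-/-.

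Tbx20, which patterns the heart's chambers, had a wild-type covered length close to that of Tbr1 and longer than it in replicate 1. Its covered length was 10037, 7401 and 7100 bp in wild-type, 8734, 6500 and 9805 bp in mfn2-/-, 12341, 10546 and 9312 bp in vhl-/- and 0, 1366 and 597 bp in HIF1dPA. Wild-type overlapped with both mfn2-/- and vhl-/-, and HIF1dPA lay below all of them. The exact permutation test across genotypes gave p = 0.00331 and an adjusted p of 0.0639. The mean in HIF1dPA differed from wild-type by -7525 ± 1013 bp (exact p = 0.1). Eomes, a master gene of early mesoderm and of some lymphocytes, covered 5295, 3814 and 1728 bp in wild-type, 6715, 3704 and 5403 bp in mfn2-/-, 5794, 10038 and 6429 bp in vhl-/- and 712, 0 and 0 bp in HIF1dPA (exact permutation p = 0.00240, adjusted p = 0.0579). The vhl-/- lists lay above those of wild-type by 3808 ± 1678 bp without overlap (exact p = 0.1), and mfn2-/- overlapped with wild-type.

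Tbx18, which acts in the sinus node and in the mesenchyme of the ureter, was the T-box gene with the least mark in wild-type of those present in all 9 lists. Its peaks covered 1013, 1684 and 936 bp in wild-type, 4221, 3066 and 2683 bp in mfn2-/-, 5436, 2772 and 3792 bp in vhl-/- and 1273, 0 and 817 bp in HIF1dPA. Both mfn2-/- and vhl-/- lay above wild-type with no overlap, whereas HIF1dPA overlapped with it. The means exceeded wild-type by 2112 ± 520 bp in mfn2-/- and by 2789 ± 812 bp in vhl-/- (exact p = 0.1 for each). The exact permutation test across genotypes gave p = 0.00565 and an adjusted p of 0.0734, which is above 0.05. The best score percentile separated in the same way, at 72.1, 60.8 and 69.6 in wild-type, 92.9, 99.4 and 92.0 in mfn2-/- and 97.8, 96.1 and 98.4 in vhl-/-. Across genotypes the percentile gave an exact permutation p of 0.0286 (adjusted p = 0.117), which was 0.0664 to 0.0844 when any 1 list of these 3 genotypes was left out.

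None of the remaining limb and heart genes passed after adjustment. Tbx5, which specifies the forelimb and the heart, covered 3872, 7021 and 2798 bp in wild-type, 1328, 2019 and 3404 bp in mfn2-/-, 4873, 11206 and 7036 bp in vhl-/- and 0, 556 and 0 bp in HIF1dPA (exact permutation p = 0.0111, adjusted p = 0.0734). Tbx4, its hindlimb counterpart, ranged from 1112 to 5185 bp in wild-type, 1302 to 3052 bp in mfn2-/- and 497 to 4687 bp in vhl-/-, and had 709 bp in 1 HIF1dPA list (exact permutation p = 0.240, adjusted p = 0.385). Wild-type overlapped with mfn2-/- and with vhl-/- for both genes, while all mfn2-/- lists of Tbx5 lay below all its vhl-/- lists, and HIF1dPA lay below wild-type without overlap, with differences of -4378 ± 1281 bp for Tbx5 and -2368 ± 1317 bp for Tbx4 (exact p = 0.1 for each). Tbx2 covered 1719, 0 and 1578 bp in wild-type, 1265, 0 and 2617 bp in mfn2-/-, 2628, 0 and 1804 bp in vhl-/- and 0 bp in every HIF1dPA list (exact permutation p = 0.377, adjusted p = 0.509). The replicate without a Tbx2 peak was number 2 in all 3 of the longer-listed genotypes. Tbx3 had 779 and 697 bp in mfn2-/- replicates 2 and 3 and 1725 bp in vhl-/- replicate 1 and was listed in no other library (exact permutation p = 0.509, adjusted p = 0.600).

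In the 3 mutants, the T-box genes can be set beside all genes tested, but the sets are unlike. The 8 T-box genes had a peak in a median of 10 lists and the 2394 genes in a median of 5. A difference in bp can be larger where more is covered, and the medians were not matched for this. They were taken over all chromosomes. The median difference from wild-type was 2671 bp for the 8 T-box genes and 63 bp for all 2394 genes in vhl-/-, with 8 of 8 T-box genes and 1312 of 2394 genes higher in the mean. For Tbx2 and Tbx4 this direction turned when single wild-type or vhl-/- lists were left out (down to -197 bp without vhl-/- replicate 1 for Tbx2 and to -496 bp without it for Tbx4), and for Tbx4 at a score of at least 100 (-167 bp). Tbx3 covered 0 bp in every wild-type list and met the minimum of 3 lists through mfn2-/- and vhl-/- lists alone. It thus could not be lower in any mutant, and its vhl-/- mean came from replicate 1 alone. The median difference was 181 bp against -238 bp in mfn2-/-. There 5 T-box genes were higher, Tbx3 among them, and 3 lower, beside 770 of all genes higher and 1588 lower. The mfn2-/- direction turned for Tbx20 without wild-type replicate 2 or 3 or mfn2-/- replicate 1 or 3 (-562 to -26.8 bp), for Tbx2 without wild-type replicate 2 or mfn2-/- replicate 3 (-354.5 and -466.5 bp), for Tbx4 without wild-type replicate 1 (759 bp), for Tbx5 at equal numbers of peaks (429 bp) and for Tbr1 with promoter peaks alone (47.3 bp). The median difference was -2872 bp against -529 bp in HIF1dPA, with 7 lower and Tbx3 at 0 bp in both groups, beside 1986 of 2394 genes lower and 108 higher. The 3 contrasts share the wild-type lists. Summed over the genes, T-box peaks covered 29803 ± 5962 bp per wild-type list and 30069 ± 5464 bp per mfn2-/- list (mean ± SD, n = 3). The sums were 47815 ± 2937 bp for vhl-/-, above every wild-type list, and 2297 ± 1074 bp for HIF1dPA.

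The score percentile gave no adjusted call. With the percentile of a gene's best peak (0 where none was listed), 0 of the 8 T-box genes and 0 of 2394 genes (0%) passed at an adjusted p under 0.05 by the exact permutation test, while 4 T-box genes (Tbx20, Eomes, Tbr1 and Tbx18) and 696 genes (29.1%) had an unadjusted p under 0.05. For Tbx20 the percentiles were 94.5, 93.0 and 91.8 in wild-type, 94.1, 98.3 and 98.6 in mfn2-/-, 99.3, 97.5 and 98.8 in vhl-/-, and 64.5 and 71.9 in the HIF1dPA lists that had a peak (exact permutation p = 0.000974, adjusted p = 0.0852). All vhl-/- values of Tbx20 lay above all wild-type values. For Eomes they were 89.6 ± 5.93 in wild-type, 93.7 ± 3.80 in mfn2-/- and 95.1 ± 0.964 in vhl-/-, against 20.8 ± 36.1 in HIF1dPA (exact permutation p = 0.00526, adjusted p = 0.0852). Without HIF1dPA, the exact permutation p over the other 3 genotypes was 0.289. On autosomes alone, 4 T-box genes and 502 of 2184 genes had an unadjusted percentile p under 0.05 by the exact permutation test. After adjustment 0 genes passed there. With equal numbers of peaks per list, 0 T-box genes and 62 of 462 genes had an unadjusted p under 0.05 for the percentile by the exact permutation test (0.104 for Tbx20, 0.294 for Eomes, 0.0536 for Tbr1 and 0.0510 for Tbx18).

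**Figure D2:**
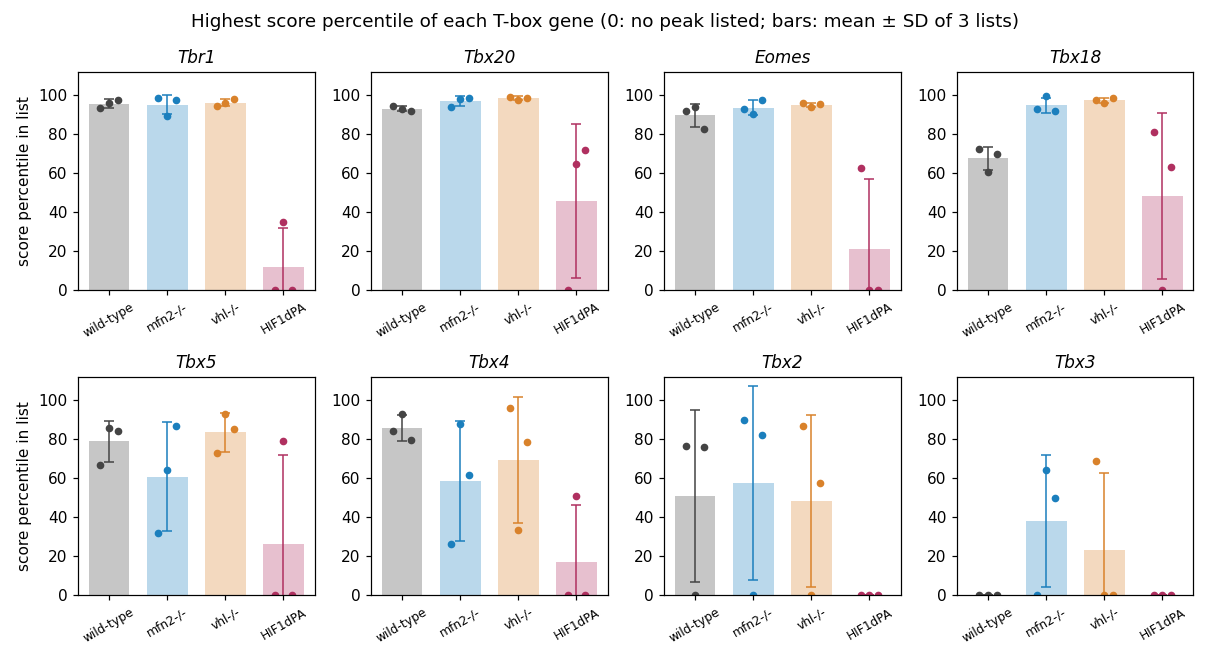
Highest score percentile of each T-box gene within its list (vertical axis, 0 to 100, 0 where no peak was listed), by genotype. Points are the 3 lists, bars the mean and whiskers the SD (n = 3). The wild-type points of Tbx18, at 60.8 to 72.1, lie below those of mfn2-/- and vhl-/-, at 92.0 to 99.4, and the points of Tbr1 outside HIF1dPA all lie at 89.4 or above.

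Since the HIF1dPA lists weigh on every test across 4 genotypes, the wild-type, mfn2-/- and vhl-/- lists were also tested alone, a choice made after the data were seen. Of 2294 genes, 0 passed after adjustment by the exact permutation test (smallest possible p 0.00357, lowest adjusted p 0.219), and 403 genes (17.6%) had an unadjusted p under 0.05 for covered length. By this exact permutation test 3 T-box genes did, Tbr1 (p = 0.0107), Tbx18 (p = 0.0321) and Tbx5 (p = 0.0464), each with an adjusted p of 0.219 or more. For the percentile 347 genes (15.1%) did and 1 T-box gene, Tbx18 (exact permutation p = 0.0143, adjusted p = 0.249).

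No T-box gene had a peak in all 3 wild-type lists and none of a mutant's, or the reverse. Between wild-type and mfn2-/-, 92 genes (1.89%) were in all wild-type lists and no mfn2-/- list and 202 genes (4.16%) the reverse, of which 9 remained when the autosomes alone were counted. All 10 T-box genes are autosomal. Between wild-type and vhl-/- the counts were 26 genes (0.55%) and 37 genes (0.783%), and between wild-type and HIF1dPA 389 genes (10.1%) and 1 gene (0.026%). In each of these comparisons and directions the count was 0 T-box genes. It was 3 for wild-type alone against HIF1dPA without HIF1dPA replicate 2, and 1 without HIF1dPA replicate 1 or wild-type replicate 2. For that call, leaving out 1 library gave 389 to 639 of all genes. Of the 762 genes in all 3 wild-type lists, 51.0% were in 0 HIF1dPA lists, 29.8% in 1, 13.9% in 2 and 5.25% in 3. Of the 6 T-box genes among them, Tbx4, Tbx5, Tbr1 and Eomes were in 1 HIF1dPA list and Tbx18 and Tbx20 in 2.

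The 10 T-box peaks that HIF1dPA myofibers did list lay where the other genotypes had theirs. Each overlapped peaks of the same gene by at least 1 bp in 5 to 9 of the 9 other lists. Pooled, those lists covered 14825 of the 15038 bp spanned by Eomes peaks, but 20880 of 68789 bp for Tbx20. The share of all HIF1dPA peaks that overlap so is not given here. Their scores ran from 50.6 to 67.2, just over the lower limit of 50 that every list shares. They were 2 Tbx18 peaks in replicate 1 and 1 in replicate 3, 2 Tbx20 peaks in replicate 2 and 1 in replicate 3, and 1 peak each of Tbr1, Tbx4 and Tbx5 in replicate 2 and of Eomes in replicate 1. At a score of 100 or more HIF1dPA lists held 0 T-box peaks, against 7 to 14 in each of the other 9 lists.

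To set lists of unequal length side by side, the 482 strongest peaks of each list, the length of the shortest, were also compared. T-box genes with a peak then numbered 3, 4 and 2 in wild-type, 5, 5 and 5 in mfn2-/-, 5, 5 and 4 in vhl-/- and 2, 4 and 2 in HIF1dPA. The gap between HIF1dPA and wild-type was thus -4 genes with all peaks and -0.333 genes at equal numbers, where their counts overlapped, while mfn2-/- lay above wild-type without overlap. How often other gene sets separate so was not tested, and the mfn2-/- excess is not read as particular to the T-box genes. The lowest score kept differed widely. It was 104.85 to 115.67 in wild-type, 96.1 to 101.3 in mfn2-/-, 119.0 to 133.2 in vhl-/- and 50.0 to 50.4 in HIF1dPA. The 482 were drawn from all chromosomes, although with all peaks most genes in mfn2-/- and not wild-type lists lay off the autosomes. Tbx20 and Tbr1 stayed in all 9 lists outside HIF1dPA. Tbx18 was in 0 wild-type, 3 mfn2-/-, 3 vhl-/- and 2 HIF1dPA lists, the 1 T-box gene among 13 genes in all mfn2-/- and no wild-type list (1.6%) and among 6 in all vhl-/- and no wild-type list (0.74%). At equal numbers 1 of 462 genes passed after adjustment in covered length, and Tbr1 did not (exact permutation p = 0.00110, adjusted p = 0.114). There the unadjusted exact permutation p was 0.0564 for Eomes, 0.0838 for Tbx20 and 1 for Tbx5. For Tbx5 it was also above 0.05 at a score of at least 100 (0.386) and with promoter peaks alone (0.0591), as for Tbx20 with promoter peaks alone (0.0882). The HIF1dPA difference from wild-type became 185 bp for Tbx5 and 697 bp for Tbx18, neither of which had a wild-type peak among the 482.

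**Figure D3:**
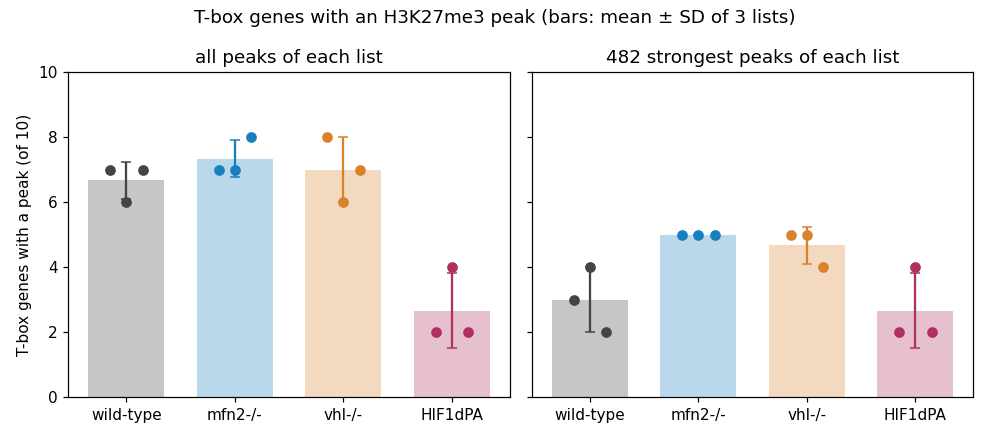
Number of the 10 T-box genes with an H3K27me3 peak (vertical axis), with all peaks of each list (left) and with the 482 strongest peaks of each list (right). Points are the 3 lists of each genotype, bars the mean and whiskers the SD (n = 3). HIF1dPA lies at 2 to 4 genes in both panels, while wild-type goes from 6 to 7 genes on the left to 2 to 4 on the right.

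Many T-box peaks lay at places shared between lists. Of the 298 peaks, 276 (92.6%) overlapped a peak of the same gene in another list by at least 1 bp, and 236 (79.2%) by at least 50% of both. The share of all peaks that overlap so is not given here. An overlap of 1 bp is easily met where pooled peaks fill a gene's span, as for Eomes (14825 of 15038 bp). Merged over lists, they made 47 regions, 22 of which came from 1 list. Peaks of Tbr1 in any of the 9 lists outside HIF1dPA covered 24863 bp, of which 7181 bp were in 5 or more lists. The peaks started near the start site used here and ran on past the gene's end, with 66 of 71 peaks wholly downstream of the site. That site, chr2:61804453, lies inside the RefSeq span of the gene (chr2:61802863-61814114), and no peak reached the beginning of the span. Its most regular regions were chr2:61803477-61811663, over the gene in 9 lists, chr2:61811857-61815418, also in 9 lists, and chr2:61815687-61821832, beyond its end in 10 lists, which held 18 of its peaks. For Tbx20 the corresponding lengths were 20880 and 7547 bp, and its peaks lay on both sides of the site, 31 upstream, 4 over it and 35 downstream. The region chr9:24766188-24783279 includes its promoter and held 59 of its 70 peaks, from 11 lists.

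Eomes was marked from before its start site to beyond its end. Its regions were chr9:118473476-118478464, before and over the start site, in 8 lists, chr9:118478614-118483957, inside the gene, in 7, and chr9:118484022-118488513, at the 3′ end and beyond, in 9. Peaks of the 9 lists covered 14825 bp, 4118 bp of them in 5 or more lists. Tbx18 was marked inside the gene: all 24 peaks lay downstream of the site, the nearest beginning 2.32 kb from it, and 21 fell into chr9:87723589-87728937, present in 11 lists. The authors classed 16 of these 24 peaks as promoter, 4 as exon and 4 as intron, with 3 of them within 1 kb of a start site, which is then not the site used here. Of this domain, 2373 bp were in 5 or more of the 9 lists. Base pairs present in all 3 lists of a genotype numbered 0 in wild-type, 1246 in mfn2-/- and 1674 in vhl-/- for Tbx18, and 1947, 1186 and 4227 for Tbr1.

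**Figure D4:**
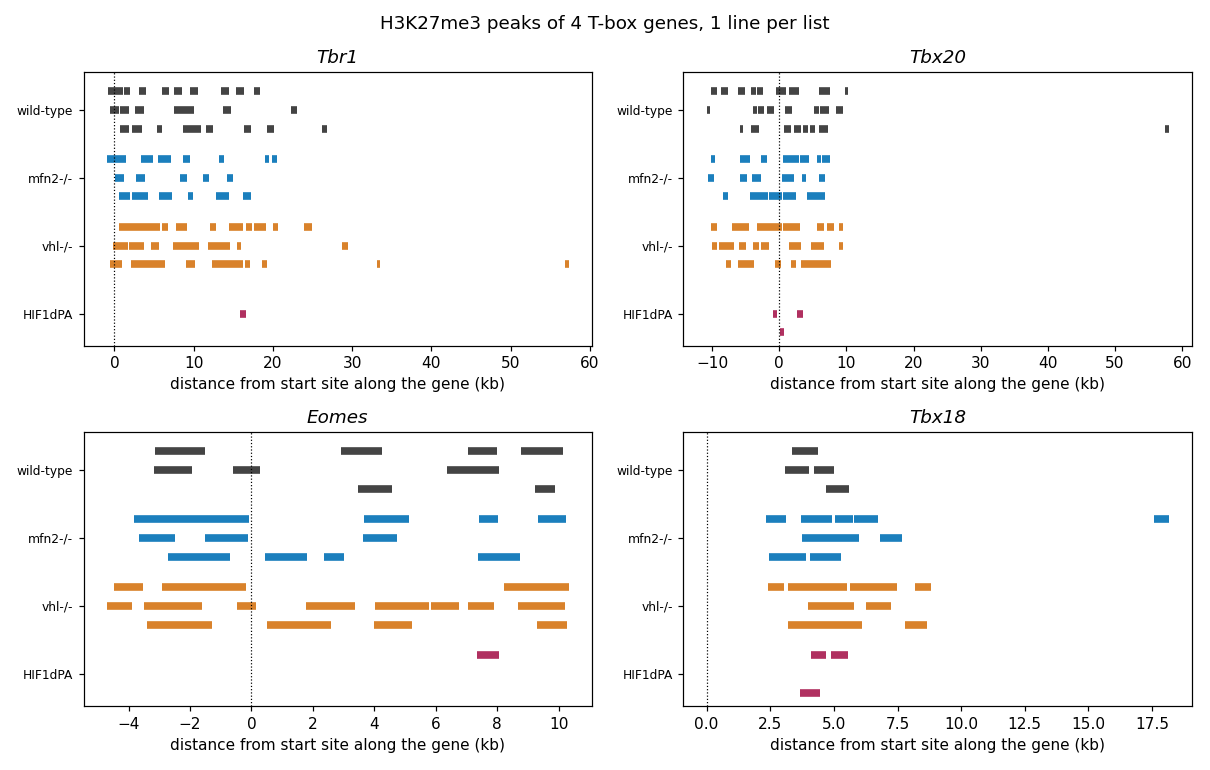
H3K27me3 peaks of Tbr1, Tbx20, Eomes and Tbx18 by distance from the start site along the gene (horizontal axis, kb, positive in the direction of transcription), with 1 line per list and 3 lines per genotype. Bars are peaks and the dotted line is the start site used, which for Tbr1 lies inside the gene's RefSeq span. Tbx18 peaks all lie downstream of the site, and those of HIF1dPA fall where other lists have peaks.

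Tbx5 and Tbx4 were marked in pieces. Tbx5 peaks covered 22073 bp in any of the 9 lists but 853 bp in 5 or more, in 15 regions of which 9 came from 1 list. The region in most lists was chr5:119835769-119841085, within the gene, with 18 peaks in 9 lists. Tbx4 covered 9738 bp in any list and 888 bp in 5 or more, with chr11:85886454-85888989 in 8 lists. Tbx2 covered 6941 bp in any list and 0 bp in 5 or more, in the regions chr11:85833586-85839569, with peaks in 6 lists, and chr11:85840744-85841700, in 1 mfn2-/- list, and Tbx3 had 1 region, chr5:119672107-119674390, in 3 lists.

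Several T-box genes sit beside a paralog or an antisense gene, and the authors' assignment of each peak to 1 gene set what was counted. Near the Tbx3 region the antisense gene Tbx3os1 had 28 peaks in 9 lists (2 wild-type, 3 mfn2-/-, 3 vhl-/- and 1 HIF1dPA), the nearest 3386 bp away, and Tbx3os2 had 12 peaks in 8 lists. Within 5000 bp of the Tbx3 gene, any peak at all was found in 5 lists instead of 3. Tbx4 and Tbx2, neighbours on chromosome 11, had their nearest peaks 30717 bp apart. Tbx1 had no peak of any gene within 5000 bp of its span (chr16:18580979-18590671). Tbx15 (chr3:99240348-99354260) had none over its span and, within 5000 bp, 4 peaks assigned to its neighbour Wars2 in 3 lists, 1 wild-type and 2 mfn2-/-. Counting any peak within 5000 bp of the T-box regions, the excess of mfn2-/- over wild-type of 0.667 genes per list became 0.

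Of the 7 other family members, T (brachyury, which drives mesoderm formation) had a peak in 11 lists, 3 each in wild-type, mfn2-/- and vhl-/- and 2 in HIF1dPA. Its covered length was 1579 ± 1159 bp per wild-type list, 1605 ± 614 bp for mfn2-/- and 2210 ± 1014 bp for vhl-/- (exact permutation p = 0.161, adjusted p = 0.306). Tbx22, an X-linked palate gene, was listed in all 3 mfn2-/- lists and no other, at 749 ± 161 bp, and so met the minimum of 3 lists through that genotype alone. It was 1 of the 202 genes in all mfn2-/- lists and no wild-type list, of which 9 were autosomal. Tbx21, the T-cell factor T-bet, had a peak in 1 vhl-/- list, and none was listed for Tbx6, Tbx10, Tbx19 or Mga.

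Genes that work with T-box factors were also marked. Of 14 partners and targets, 12 had a peak, 10 could be tested, 1 passed after adjustment (1.84% of all genes did) and 7 had an unadjusted p under 0.05 (33.2% of all genes) by the exact permutation test of covered length. The 1 was Pitx1, which directs hindlimb identity, with means of 2827 bp in wild-type and 1645 bp in mfn2-/- lists, against 4819 bp in vhl-/- and 202 bp in HIF1dPA (3 lists each, exact permutation p = 0.000130, adjusted p = 0.0415). It was not called in the settings where 0 genes passed, such as without mfn2-/- replicate 1 or any 1 HIF1dPA list. Nkx2-5 and Gata4, which bind heart genes together with Tbx5, had peaks in all 12 lists, and Hand2 in 11. For Gata4 the means were 15052, 13738, 19470 and 2035 bp in the same order (exact permutation p = 0.00188, adjusted p = 0.0564). Nppa and Gja5, heart genes that Tbx5 activates, had no peak in any list. Of 13 genes of Polycomb subunits and H3K27 demethylases, which write and remove the mark, 3 had a peak (Ezh2, Rbbp7 and Jarid2), each in 1 list.

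Genes outside the family followed the same pattern over lists. Among 1001 genes with peaks in at least 6 lists, the 5 whose covered length correlated best over the 12 lists with the mean of the T-box genes were C130071C03Rik (r = 0.972), Gata4 (0.971), Gm11535 (0.971), Sim1 (0.959) and Pax6os1 (0.956). Pearson's r is given here as a description of 12 points that share their libraries and list lengths, the HIF1dPA lists among them.

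H3K9me3, the other silencing mark of the study, was almost absent from the family. Of the 10 T-box genes Tbx18 alone had an H3K9me3 peak in any of the 12 H3K9me3 lists, 1 distal peak at chr9:87589256-87589828 in wild-type replicate 3, with a score of 56.2 at rank 2331 of 3020.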

How the data were processed

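ChIP-seq was carried out on H3K9me3 and H3K27me3 in 24 libraries of regenerating myofibers, with 1 further input library that was not used here. The authors aligned reads and called peaks per library. The submitters' processing notes name BWA 0.7.5, MACS, deepTools 3.5.0 and mm10, with no order or role, and the use of the input and of duplicate reads is not given in the sources used here. The deposited lists give intervals, taken as inclusive, and a score, which per the values is 10 times the negative log10 of the caller's p-value (at least 50, so p of 1e-05 or less). The gene and feature class of each peak are the authors'. Read depth is unknown, and no interval or floor that needs it was computed.

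Genotype and antibody, as labelled, defined the groups. The members and gene lists were chosen with earlier results of these data known. From the list of partners and targets, 1 gene is not reported here. The 10 members are named, with other T-box genes where a list had a peak and the 5 genes most like them. Covered length is the union of a gene's peaks, and percentiles are within a list. Tests were exact permutations over libraries of the between-group sum of squares (369600 arrangements, smallest p 6.49e-05) or, for 3 against 3, of the difference in means (two-sided, smallest p 0.1), with Benjamini-Hochberg adjustment over 2394 genes with a peak in at least 3 lists. The test was tested on simulated lists. Alternatives were a score of at least 100, equal numbers of peaks, promoter peaks, autosomes, no filter on lists, joining of peaks within 1000 bp, a replicate block and leaving out each library. No pair of lists was identical, and 3 peaks had no gene symbol. Promoter windows are from RefSeq (GRCm38.p6), read for Tbx1, Tbx4, Tbx18, Tbx20, Tbr1 and Eomes. Python 3.11.15, numpy 2.4.6, pandas 2.3.3, scipy 1.17.1 and matplotlib 3.10.9 were used.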

Additional observations from a re-analysis of the deposited data

Results flagged for a closer look

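The H3K9me3 lists, which the comparisons above do not use, held 1 peak of a T-box family gene in a mutant for which no wild-type list had any. It was assigned to Tbx22 in vhl-/- replicate 2, with a score of 50.84, near the lower limit of the lists, at rank 1117 of 1201, and spanned 805 bp (chrX:107606513-107607317).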

How the results depend on the processing

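Tbr1's adjusted call in covered length did not hold in every alternative. In all, 44 genes passed after adjustment. By the same exact permutation test 0 did with the replicate block (455 unadjusted), with genes of at least 1 list (794 unadjusted) or with wild-type, mfn2-/- and vhl-/- alone (403 unadjusted), 1 did with equal numbers of peaks and 19 with promoter peaks alone, where Tbr1 had an adjusted p of 0.0497. Leaving out 1 library gave 0 to 104 genes, with 0 without mfn2-/- replicate 1 or any 1 HIF1dPA list, 9 and 23 without vhl-/- or mfn2-/- replicate 2, 71 and 72 without wild-type replicates 1 and 2, and 104 without vhl-/- replicate 3. Same-numbered libraries deviated with a mean correlation of 0.00395 (-0.0408 to 0.0676 over 18 pairs), so the numbers were not taken as pairs. With the replicate block Tbr1 had an exact permutation p of 0.00174, the smallest possible, and an adjusted p of 0.179. Of 408 differences of a T-box gene from wild-type under an alternative, 18 changed sign, 1 of them among the 9 differences whose groups did not overlap (Tbx5 in HIF1dPA, 185 bp with equal numbers of peaks). The share of all genes whose groups did not overlap is not given here.

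At a score of at least 100, genes in all wild-type and no list of a mutant numbered 10 for mfn2-/-, 3 for vhl-/- and 138 for HIF1dPA, and the reverse 11, 13 and 0. With equal numbers of peaks they were 4, 5 and 29, and the reverse 13, 6 and 8. With promoter peaks they were 59 and 16 for mfn2-/- and vhl-/-, and the reverse 30 for mfn2-/- and 0 for HIF1dPA. On autosomes 9 genes were in mfn2-/- lists only. Leaving out 1 library gave 92 to 218, 26 to 89 and 389 to 639 genes, and 37 to 108 for vhl-/- only and 1 to 6 for HIF1dPA only. T-box genes in all wild-type and no HIF1dPA list went from 0 to 2 at a score of at least 100 (beside 138 of all genes) and 3 with promoter peaks (beside 283). They numbered 0 to 3 without 1 library (beside 389 to 639). The numbers of genes with any peak under these alternatives are not given here, so these counts carry no shares.

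The difference from wild-type in T-box genes per list moved, for vhl-/-, from 0.333 to 1.33 at a score of at least 100 and to 1.67 with equal numbers, for mfn2-/- from 0.667 to 2 with equal numbers and to 0 with any peak within 5000 bp, and for HIF1dPA from -4 to -0.333 with equal numbers. The share of T-box peaks overlapping another list was 92.6%, 79.2% at a reciprocal 50% and 88.4% at a score of at least 100. That share over all peaks is not given here. The causes of these shifts were not tested. Read depth, unknown here, limits every absence of a peak.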
